A study of Mus musculus with 65 samples.

Results

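The 6 inhibitors of cyclin-dependent kinases studied here were Cdkn1a, Cdkn1b, Cdkn2a, Cdkn2b, Cdkn2c and Cdkn2d, matched by Ensembl identifier to 6 of the 31057 rows of a mouse RNA-seq count table. The table holds 65 libraries in 15 groups, made from primary neural stem cells of the adult subventricular zone, the niche along the lateral ventricles. All animals carried the iOSKM genotype, a doxycycline-inducible cassette for the reprogramming factors Oct4, Sox2, Klf4 and Myc, so untreated controls carried it too. Cells came from 5 young mice of 3 to 4 months and 4 old mice of 25 months, of both sexes. Stem cell medium contained the growth factors EGF and bFGF. For differentiation, cells were moved to medium without either factor 18 h after plating, and doxycycline was given at 2 µg per ml. Young cells were sampled after 18 h in stem cell medium, untreated or treated, and without treatment at 6, 18 and 48 h of differentiation. Old cells were sampled in the same 5 conditions, and in 5 more with doxycycline, namely stem cell medium for 6 or 48 h and differentiation for 6, 18 or 48 h. Each group held 1 library per animal. The sources used here do not say which promoter drives the cassette or which cells it is active in, and the cells are cultured, not freshly sorted.

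Cyclin-dependent kinases paired with D-type and E-type cyclins carry a cell from G1 into S phase by phosphorylating the retinoblastoma proteins and releasing E2F factors. The Cip/Kip inhibitors p21 (Cdkn1a, a classical p53 target) and p27 (Cdkn1b, held back by Skp2-dependent degradation and raised by FoxO factors) bind cyclin-kinase complexes. The INK4 inhibitors p16 (Cdkn2a), p15 (Cdkn2b, a TGF-beta target), p18 (Cdkn2c) and p19Ink4d (Cdkn2d) bind Cdk4 and Cdk6. Cdkn2a also encodes p19Arf, which frees p53 from Mdm2. In the adult brain p21, p27 and p16 are known for restraining the division of neural stem and progenitor cells, and p16 is a widely used marker of senescence and ageing.

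The genes lie at the following places in mm10 (GENCODE M21). Cdkn1a (ENSMUSG00000023067) spans chr17:29090976-29100727 on the plus strand, and Cdkn1b (ENSMUSG00000003031) spans chr6:134920401-134925513, also on the plus strand. Cdkn2a (ENSMUSG00000044303) spans chr4:89274471-89294653 and its neighbour Cdkn2b (ENSMUSG00000073802) chr4:89306299-89311039, both on the minus strand and 11645 bases apart. Cdkn2c (ENSMUSG00000028551) spans chr4:109660876-109667189 and Cdkn2d (ENSMUSG00000096472) chr9:21288410-21291407, both on the minus strand. Counts are per gene over all exons, so the p16 and p19Arf transcripts of Cdkn2a, which start at different first exons, were counted together, and no value below separates them. An antisense gene is annotated over Cdkn1a, and the strand setting of the counting is not given, so reads from it cannot be told apart from those of Cdkn1a.

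The 250 bases before 5 start sites are shown for the members with the clearest patterns below: the downstream start of Cdkn1a, the member with the widest range; both starts of Cdkn2a, whose counts are joined; and Cdkn2c and Cdkn2d, whose levels moved most alike. All read 5′ to 3′ on the gene's strand and end at the base before the start (RefSeq, GRCm38.p6). Capitals mark the GC box GGGCGG on either strand and the E2F word TTTCCCGC.
Cdkn1a downstream start, chr17:29093519-29093768, plus strand: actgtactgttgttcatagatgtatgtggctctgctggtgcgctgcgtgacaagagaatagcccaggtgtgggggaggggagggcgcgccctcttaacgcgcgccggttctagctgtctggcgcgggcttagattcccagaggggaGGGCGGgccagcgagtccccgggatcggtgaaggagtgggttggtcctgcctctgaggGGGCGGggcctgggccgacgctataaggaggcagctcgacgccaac
Cdkn2a upstream start (p19Arf), chr4:89294620-89294869, minus strand: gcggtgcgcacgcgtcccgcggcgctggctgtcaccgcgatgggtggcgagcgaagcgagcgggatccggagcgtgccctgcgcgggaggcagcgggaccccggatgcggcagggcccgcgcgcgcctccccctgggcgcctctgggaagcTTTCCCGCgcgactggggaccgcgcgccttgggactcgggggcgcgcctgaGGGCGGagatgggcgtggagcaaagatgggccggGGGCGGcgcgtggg
Cdkn2a downstream start (p16), chr4:89282193-89282442, minus strand: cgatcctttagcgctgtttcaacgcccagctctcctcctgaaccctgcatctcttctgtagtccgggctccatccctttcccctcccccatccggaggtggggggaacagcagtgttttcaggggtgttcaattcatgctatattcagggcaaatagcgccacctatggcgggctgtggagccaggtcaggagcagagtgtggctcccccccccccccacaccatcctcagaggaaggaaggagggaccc
Cdkn2c upstream start, chr4:109666757-109667006, minus strand: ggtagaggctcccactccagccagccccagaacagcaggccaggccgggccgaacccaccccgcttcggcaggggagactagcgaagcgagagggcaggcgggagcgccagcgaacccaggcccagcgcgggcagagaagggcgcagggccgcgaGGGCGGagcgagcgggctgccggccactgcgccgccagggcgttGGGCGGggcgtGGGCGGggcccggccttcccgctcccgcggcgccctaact
Cdkn2d start, chr9:21291210-21291459, minus strand: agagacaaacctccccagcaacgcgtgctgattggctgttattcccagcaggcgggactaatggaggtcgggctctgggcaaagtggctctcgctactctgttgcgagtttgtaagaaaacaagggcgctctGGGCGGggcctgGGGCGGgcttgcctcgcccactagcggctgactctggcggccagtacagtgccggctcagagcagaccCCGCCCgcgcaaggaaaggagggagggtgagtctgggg

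The Cdkn1a window held 2 GC boxes, and those of Cdkn2c and Cdkn2d held 3 each. The p19Arf window held 2 GC boxes and 1 TTTCCCGC, and the p16 window held neither. Cdkn1b had 1 GC box, whereas Cdkn2b, the upstream start of Cdkn1a and the downstream start of Cdkn2c had no match. Of 32851 RefSeq windows of the same length, 32.7% held GGGCGG and 0.9% held TTTCCCGC. No member window held the E2F word TTTGGCGC (0.4% of all windows), the forkhead word GTAAACA (3.2%), the E-box CACGTG (6.0%) or the TATA word TATAAA (12.4%), all searched on both strands. These are matches of letters, not measured binding.

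Total counts per library ran from 56.5 M to 117 M, with a median of 86.7 M, and values of 2 (75644) were more frequent in the table than values of 1 (19963), so the counts of 1 fragment may enter as 2. Every member had at least 633 counts in every library and passed the filter on low counts in every comparison. The stem cell factor Sox2 lay between 216 and 385 CPM (counts per M counts of the library, where M stands for mega, TMM-scaled) in the 65 libraries. Others of its list of 7 varied more. Group means of Nes ran from 1312 CPM in young untreated stem cell medium to 93.4 CPM in old doxycycline cells at 48 h of differentiation. Vim was also lowest in that last group (769 CPM, highest 5008). Slc1a3 was instead highest at 48 h of differentiation, in young untreated cells (3962 CPM, lowest 497). The microglial genes Aif1, Cx3cr1, Ptprc and Tyrobp, the endothelial gene Cldn5 and the fibroblast genes Dcn and Lum were at most 0.12 CPM in any library. Other genes of those lists went higher: Csf1r reached 11.2, Flt1 20.4, Pdgfrb 7.27, Rgs5 0.738 and Col1a2 0.649 CPM. The sum of 5 pericyte and fibroblast markers ranged from 0.547 to 1.29 CPM in untreated stem cell medium and from 2.1 to 7.87 CPM at 48 h of untreated differentiation, and that of 4 endothelial markers from 9.36 to 20.8 and from 0.606 to 1.23 CPM. The astrocyte gene Gfap reached 1248 CPM and the myelin gene Mbp 341 CPM. Mog, from the same list as Mbp, was at most 0.779 CPM in any library. The sum of the 6 oligodendrocyte lineage markers of that list ranged from 920 to 1123 CPM in untreated stem cell medium of both ages. At 48 h of untreated differentiation this sum ranged from 860 to 1107 CPM. Olig2 weighed heavily in it, with group means from 525 CPM in young untreated cells at 48 h of differentiation to 956 CPM. Sox10 and Mbp were instead highest in old doxycycline cells at 48 h of differentiation (138 and 203 CPM). Their lowest group means were 0.826 and 0.532 CPM, so a similar sum does not mean that its genes stayed level. The summed level of 4 astrocyte markers ranged from 678 to 901 CPM in the untreated stem cell medium libraries of both ages and from 1488 to 2692 CPM in the untreated ones at 48 h of differentiation. The sum of 5 neuroblast and neuron markers went from 25 to 46.7 CPM to 178 to 266 CPM between the same groups. The part of these shifts in the changes below was not tested. In bulk RNA, fewer cells of a type and less RNA per cell cannot be told apart.

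Per unit of merged exon length, Cdkn1a was the most abundant member in stem cell medium. This length joins the exons of all annotated transcripts of a gene, so the order and shares below depend on it. For Cdkn1b it was 4552 bases, the longest of the members. Before division by length, Cdkn1b averaged 104.9 CPM in untreated young stem cell medium, above Cdkn2a at 83.67 CPM. In young cells at 18 h it stood at 189 ± 7.26 CPM per kb (SD, n = 5), ahead of Cdkn2a at 71.4 ± 6.11, Cdkn2b at 35.4 ± 6.36, Cdkn2c at 25.4 ± 2.58, Cdkn1b at 23.04 ± 1.24 and Cdkn2d at 10.9 ± 0.776. The 6 together came to 356 ± 15.3 CPM per kb, of which Cdkn1a made up 53.3% ± 0.562. After 48 h of differentiation the sum was 144 ± 9.3 CPM per kb in young and 132 ± 1.58 in old cells, against 332 ± 15.1 in old stem cell medium. Cdkn1a then made up 23.8% ± 2.15 and 24.01% ± 0.843. Cdkn2a held the largest mean share at 48 h, 30.6% ± 1.71 in young and 26.4% ± 0.837 in old cells. The share of Cdkn1b was 6.5% ± 0.531 in young stem cell medium and 19.3% ± 0.807 at 48 h.

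**Figure D1:**
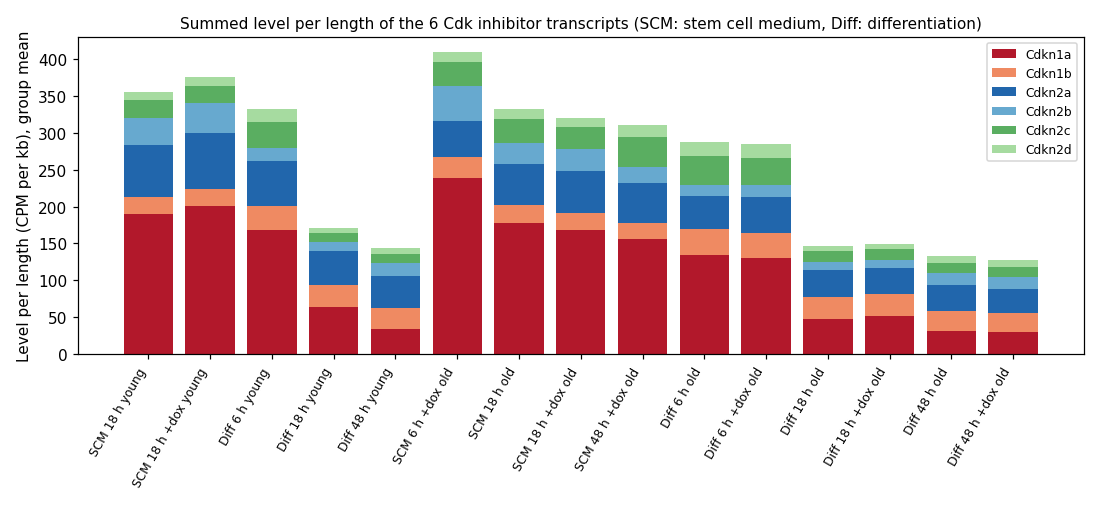
Mean level per length (CPM per kb) of the 6 members, stacked, in each of the 15 groups; SCM is stem cell medium and Diff differentiation. The stack shrinks from 355.6 to 144.3 CPM per kb between young stem cell medium and 48 h of differentiation, mostly in the Cdkn1a segment.

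The range over the 15 group means differed between members. Cdkn1a spanned 8.01 times, from 531 CPM in old cells with doxycycline at 6 h in stem cell medium to 66.2 CPM in old doxycycline cells at 48 h of differentiation. Cdkn2b spanned 4.30 times, Cdkn2c 3.24, Cdkn2d 2.76, Cdkn2a 2.30 and Cdkn1b 1.61 times. Ordered by mean, the Cdkn1a groups were separated from their neighbours at 4 places: below the 6 h stem cell medium group, before the 3 groups at 18 h of differentiation, between young and old cells at 18 h, and before the 48 h groups. All other neighbours overlapped in their libraries. For Cdkn1b every neighbouring pair of groups overlapped.

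**Figure D2:**
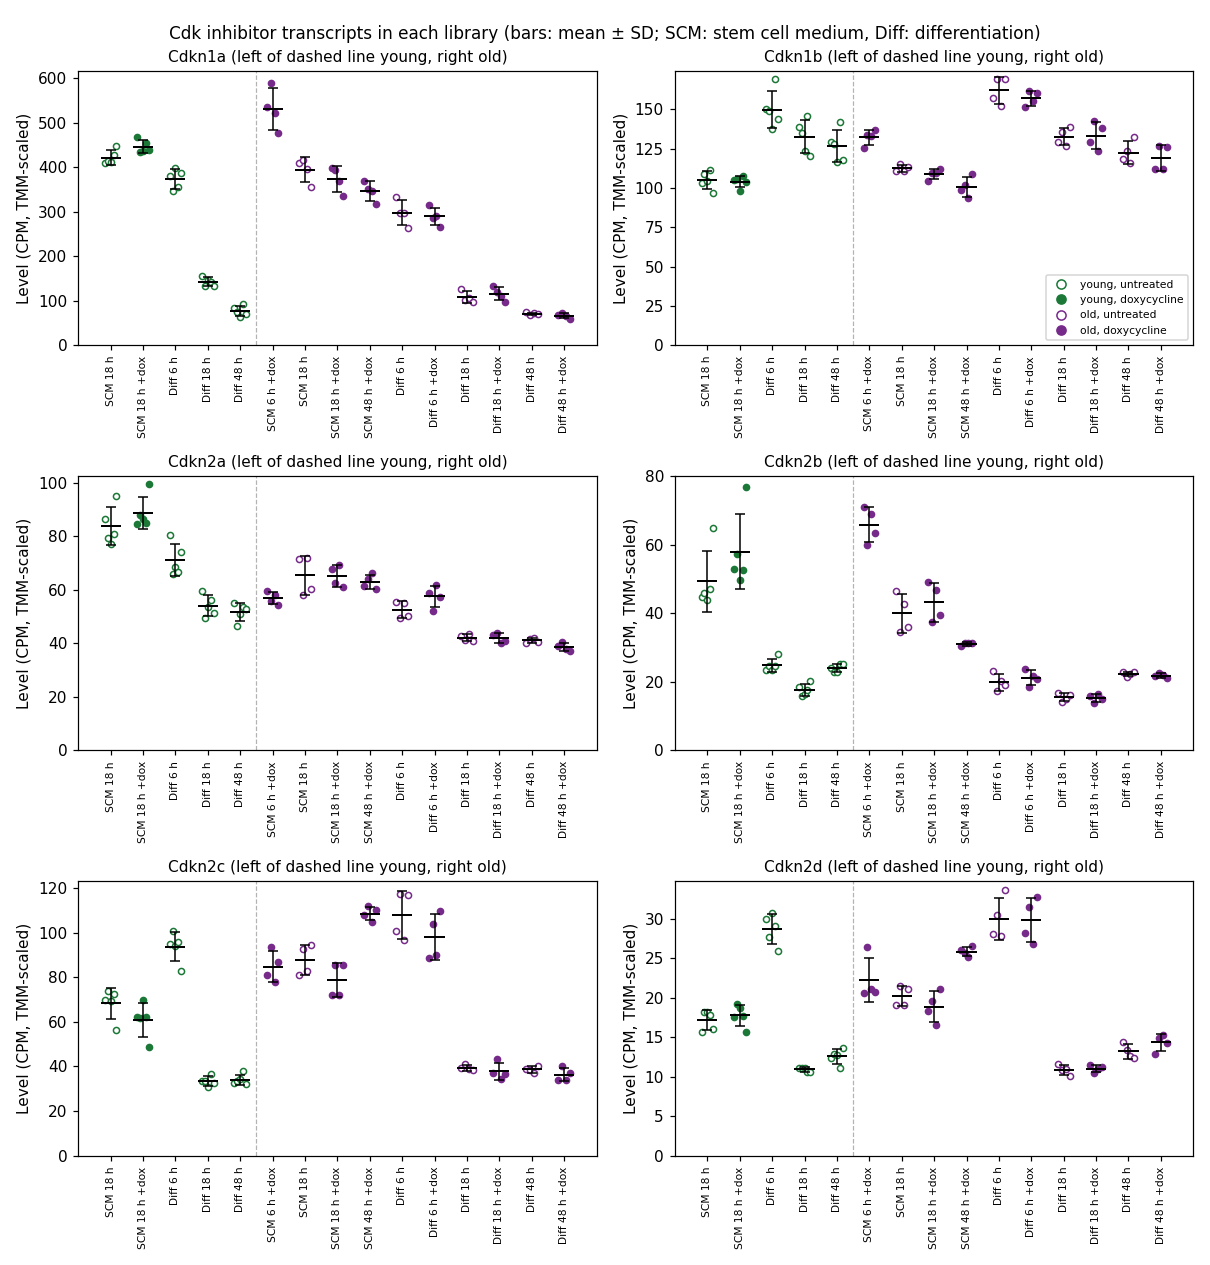
Level of each member (CPM) in all 65 libraries by group; points are libraries, bars the mean and SD, green young and purple old, filled points doxycycline. Cdkn1a falls from 354.8 CPM or more in untreated stem cell medium to at most 91.6 CPM at 48 h of differentiation, whereas Cdkn1b lies highest at 6 h of differentiation.

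Differentiation was compared with 18 h in stem cell medium, in untreated cells of each age, to see how the inhibitors moved as the cells left the growth factors. All 6 members passed an adjusted p of 0.05 (edgeR) at 6, 18 and 48 h in both ages, but so did most genes. The share of all tested genes called in young cells was 74.9%, 82.6% and 83.0%, and in old cells 75.5%, 82.0% and 82.3%, so the count of members called is near the background. The direction and the size are what is described here. At 18 and 48 h, 5 of 6 members were lower in both ages (background for lower calls 40.3% and 41.1% in young, 40.5% and 40.4% in old cells), and Cdkn1b alone was higher. The 3 times of an age share their stem cell medium libraries, which were taken at 18 h, so at 6 and 48 h the labelled hour differed along with the medium. Differentiation began 18 h after plating. If the hours in stem cell medium were counted from plating, time since plating differed at 18 h too.

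Cdkn1a, whose product p21 arrests cells downstream of p53, fell most by estimate at 18 and 48 h, while at 6 h Cdkn2b fell more. In young cells at 18 h these genes were close. Without 1 animal each, log2 changes ran from -1.562 to -1.477 for Cdkn1a and from -1.483 to -1.372 for Cdkn2b. In young stem cell medium the 5 libraries held 408, 413, 411, 426 and 447 CPM of Cdkn1a. At 6 h of differentiation they held 379.9, 345, 398, 355 and 386 CPM, at 18 h 156, 133, 148, 143 and 133 CPM and at 48 h 83.8, 74.8, 62.5, 91.6 and 69.8 CPM. Every library was lower than all stem cell medium libraries from 6 h on. The log2 change was -0.16 ± 0.046 (SE, adjusted p = 0.00549) at 6 h, -1.52 ± 0.046 (5.40e-13) at 18 h and -2.43 ± 0.091 (1.44e-10) at 48 h, a 5.38-fold drop. In old cells the 4 stem cell medium libraries held 410.2, 417, 395 and 355 CPM. The old libraries held 333, 296, 297 and 264 CPM at 6 h, 127, 102, 105 and 96.4 CPM at 18 h and 73.6, 67.4, 71.8 and 70.01 CPM at 48 h. The old changes were -0.40 ± 0.071, -1.84 ± 0.087 and -2.44 ± 0.051, the last a 5.42-fold drop (adjusted p = 2.00e-12). Between 18 and 48 h Cdkn1a fell again, 1.89-fold in young and 1.54-fold in old cells.

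Cdkn1b, encoding p27, moved the other way and by less. Young stem cell medium libraries held 103, 109, 104, 112 and 96.8 CPM and young libraries at 6 h of differentiation 150.0, 149, 137, 169 and 144 CPM. The groups did not overlap, and the log2 change was 0.53 ± 0.057 (adjusted p = 1.35e-06, higher in 5 of 5 animals). In old cells the values were 110.5, 115, 111 and 113 CPM before and 157, 169, 152 and 169 CPM at 6 h, a change of 0.53 ± 0.038 (8.05e-08, 4 of 4 animals). The rise was smaller later: 0.38 ± 0.052 at 18 h and 0.31 ± 0.055 at 48 h in young cells, and 0.27 ± 0.036 and 0.16 ± 0.041 in old cells. From 6 to 18 h the level fell 1.12-fold in young cells (adjusted p = 0.0195, 0.0621 without young animal 5) and 1.21-fold in old cells (7.42e-05). All 6 members were called from 6 to 18 h in each age, against 66.5% of genes in young and 67.7% in old cells.

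Cdkn2a, the p16 and p19Arf gene, was lower at each time. In young cells it lay at 86.3, 79.4, 76.9, 80.9 and 94.9 CPM in stem cell medium, 80.3, 65.7, 68.5, 66.6 and 74.1 CPM at 6 h, 59.5, 49.5, 53.6, 56.1 and 51.1 CPM at 18 h and 55.1, 46.3, 50.8, 53.4 and 52.8 CPM at 48 h. The libraries at 6 h overlapped those in stem cell medium, and those at 18 and 48 h were all lower. The log2 changes were -0.22 ± 0.067, -0.59 ± 0.061 and -0.66 ± 0.061 (adjusted p = 0.00791, 4.61e-07 and 2.24e-07). Old cells went from 71.5, 58.1, 71.8 and 60.2 CPM to 55.5, 49.6, 54.99 and 50.3, then 42.5, 41.3, 43.6 and 40.96 and finally 40.1, 41.5, 42.03 and 40.6 CPM. There the changes were -0.31 ± 0.078, -0.60 ± 0.07 and -0.63 ± 0.07. The difference between 48 and 18 h was -0.083 ± 0.054 in young cells, which passed only with animals as blocks (adjusted p = 0.213 without and 0.0355 with them).

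Cdkn2b, encoding p15 and neighbouring Cdkn2a, was lower by 6 h and rose again from 18 to 48 h. Young stem cell medium libraries held 44.9, 45.9, 43.8, 47.2 and 65.04 CPM, and those at 6, 18 and 48 h of differentiation ranged over 23.4 to 28.2, 15.9 to 20.1 and 22.7 to 25.3 CPM. In old cells the stem cell medium libraries held 46.5, 34.7, 42.7 and 36.05 CPM, with later ranges of 17.3 to 23.1, 14.1 to 16.8 and 21.5 to 22.8 CPM. By 6 h it was 1.97-fold lower in young and 2.0-fold lower in old cells (log2 -0.98 ± 0.10 and -0.999 ± 0.12). At 18 h the differences were -1.44 ± 0.11 and -1.33 ± 0.099, and at 48 h -1.01 ± 0.10 and -0.80 ± 0.088. Between 18 and 48 h Cdkn2b rose 1.34-fold in young (adjusted p = 8.18e-05, 5 of 5 animals) and 1.42-fold in old cells (6.81e-06, 4 of 4 animals). The libraries of the 2 times did not overlap in either age.

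Cdkn2c and Cdkn2d, the p18 and p19Ink4d genes, rose at 6 h and were low at 18 h. Young Cdkn2c libraries held 69.8, 73.7, 69.4, 72.4 and 56.3 CPM in stem cell medium and 94.99, 101, 93.9, 95.8 and 82.99 CPM at 6 h. At 18 h they held 33.7, 33.5, 30.9, 36.7 and 32.7 CPM. The groups were apart at each step, with log2 changes from stem cell medium of 0.47 ± 0.073, -0.98 ± 0.068 and, at 48 h, -0.97 ± 0.071. Old Cdkn2c libraries held 80.9, 92.8, 82.8 and 94.4 CPM in stem cell medium, 101, 118, 96.6 and 117 CPM at 6 h and 39.3, 41.3, 38.7 and 38.3 CPM at 18 h. The old changes were 0.31 ± 0.074, -1.12 ± 0.054 and -1.14 ± 0.054. Cdkn2d, the least abundant member, went from 15.7, 18.2, 18.2, 17.8 and 16.1 CPM to 29.9, 27.7, 30.8, 29.04 and 25.9 CPM at 6 h and 11.1, 11.1, 11.2, 10.6 and 10.7 CPM at 18 h in young cells. Its changes were 0.75 ± 0.061, -0.61 ± 0.058 and -0.42 ± 0.066 in young cells, and 0.58 ± 0.068, -0.86 ± 0.067 and -0.57 ± 0.066 in old cells. From 6 to 18 h Cdkn2c fell 2.78-fold and Cdkn2d 2.61-fold in young cells, and 2.72-fold and 2.74-fold in old cells.

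From 18 to 48 h, 3 of 6 members were called in young cells (56.9% of genes) and 4 of 6 in old cells (56.5%). Cdkn1a fell in both ages, and Cdkn2b and Cdkn2d rose. Cdkn2d rose 1.13-fold in young cells (adjusted p = 0.0142; 0.0506 without animal 2 and 0.0599 without animal 5) and 1.2-fold in old cells (0.00362). In old cells Cdkn1b fell 1.1-fold (adjusted p = 0.021; 0.0738 without animal 2 and 0.0678 without animal 3). In young cells Cdkn1b was called only with animals as blocks (log2 -0.084 ± 0.026, 0.0145), which brought the young count to 5 (62.6% of genes). For Cdkn2c the 95% interval of the change was -0.10 to 0.11 in young and -0.13 to 0.034 in old cells.

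**Figure D3:**
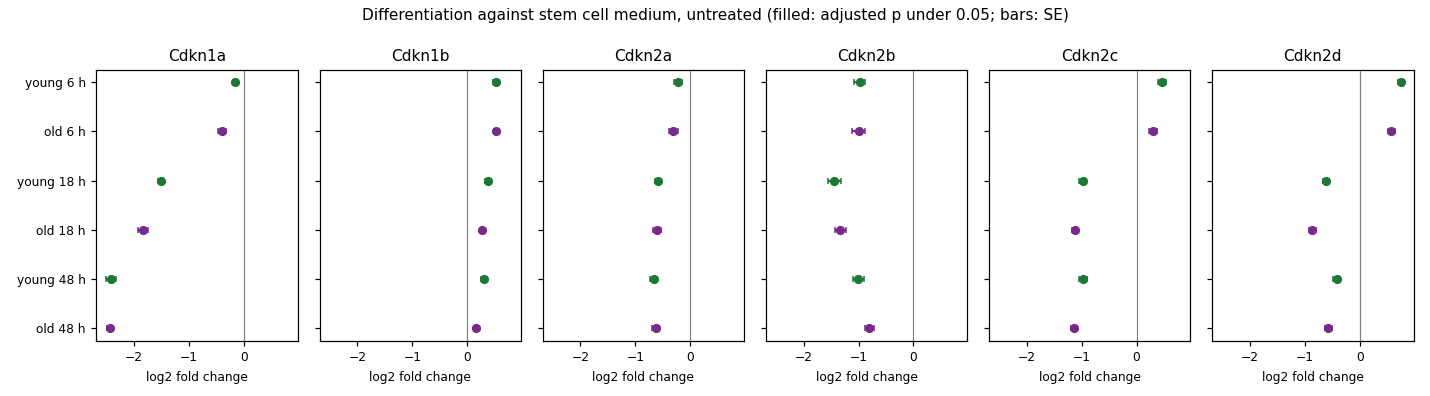
Log2 fold change of each member at 6, 18 and 48 h of differentiation against 18 h in stem cell medium, untreated young (green) and old (purple) cells; bars are SE and filled points have an adjusted p under 0.05. Cdkn1a reaches -2.43 and -2.44 at 48 h, Cdkn1b stays above 0, and Cdkn2c and Cdkn2d are above 0 at 6 h and below it afterwards.

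Whether the effect of differentiation differed between ages was tested by an interaction at each time. By edgeR, none of the 6 members passed at 6, 18 or 48 h, where 0.0454%, 0.818% and 3.85% of genes did. DESeq2 also called 0, and 1, 2 and 0 members had an unadjusted p under 0.05. The widest was Cdkn1a at 18 h, -0.30 ± 0.096 (old minus young effect, adjusted p = 0.13, 95% interval -0.49 to -0.11). It passed without old animal 1 (0.0241). At 48 h the interval for Cdkn1a was -0.23 to 0.21.

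The kinases and targets of the inhibitors moved as follows in the same comparisons. Of 20 S phase and mitosis genes, 11 rose and 8 fell at 6 h in young cells (median log2 0.35), while all 20 fell at 18 h (median -4.62) and at 48 h (-4.57). In old cells 7 rose and 8 fell at 6 h (median 0.19), and all 20 fell at 18 h (-4.98) and 48 h (-4.95). The median over all tested genes ran from 0.0129 to 0.0308 in these 6 comparisons. At 6 h 74.9% of all genes were called in young and 75.5% in old cells. From 40.3% to 41.1% of all genes were called lower in the comparisons at 18 and 48 h. At 48 h the mitotic kinase Plk1 stood at 1.3 against 71.4 CPM in young cells (log2 -5.76 ± 0.19), and Cdk1, the kinase of mitosis, at 1.85 against 101 CPM. At 6 h in old cells the mitotic cyclin Ccnb2 rose by 1.34 ± 0.13, while the replication helicase subunits Mcm3 (-1.82 ± 0.067) and Mcm6 (-1.53 ± 0.082) were lower. At 6 h, when Cdkn1b, Cdkn2c and Cdkn2d were higher, members of this list went both ways, and at 18 and 48 h they were low together with 5 of the 6 inhibitors.

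Of 9 G1 cyclins and kinases, all 9 fell at 48 h in both ages (median log2 -1.79 in young and -1.97 in old cells). At that time 41.1% of all genes in young and 40.4% in old cells were called lower. Ccnd1, the D-type cyclin that answers to growth factors, went to 32.2 against 3467 CPM in young cells (log2 -6.72 ± 0.13) and Ccnd2 to 130.0 against 2664 CPM (-4.33 ± 0.11). At 6 h in old cells Ccnd1 was already at 191 against 3134 CPM, whereas Cdk6, a kinase bound by INK4 proteins, rose by 1.56 ± 0.15. Among 13 Rb and E2F genes, 2 rose and 10 fell at 48 h in each age, where 83.0% and 82.3% of all genes were called in young and old cells. The pocket proteins Rbl2 (1.52 ± 0.047) and Rb1 (0.89 ± 0.046) were higher in young cells, and E2f7 (-5.69 ± 0.27) and E2f2 (-5.29 ± 0.17) were lower.

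Of 24 genes of p53 and its targets other than Cdkn1a, 4 rose and 20 fell at 48 h in young cells (median -0.88), and 4 rose and 19 fell in old cells (-0.88). The background was 83.0% of all genes called in young and 82.3% in old cells (41.1% and 40.4% lower). Btg2, an antiproliferative gene, rose by 1.42 ± 0.14 and the stress gene Sesn1 by 1.41 ± 0.071 in young cells, while Gtse1 (-4.44 ± 0.10) and the kinase Plk2 (-3.36 ± 0.10) were lower. Of 14 genes of p27 turnover and the FoxO factors, 4 rose and 6 fell in young cells and 4 and 7 in old cells. These are 10 and 11 of 14 called, against 83.0% and 82.3% of all genes. Foxo4 (1.29 ± 0.076) and Foxo3 (0.69 ± 0.047) were higher in young cells at 48 h. Skp2, which marks p27 for degradation, fell by 1.75 ± 0.084 and its cofactor Cks1b fell by 2.74 ± 0.073. At 6 h, when Cdkn1b was highest, Skp2 was at -1.06 ± 0.076 and Foxo4 at 1.25 ± 0.05 in old cells. Only RNA was measured, not p27 protein, and a link of either gene to the Cdkn1b level was not tested.

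Among 25 Polycomb and other regulators of the Cdkn2a and Cdkn2b locus, 9 rose and 10 fell in young cells at 48 h and 9 and 13 in old cells. That is 19 and 22 of 25 called, where 83.0% and 82.3% of all genes were. Hmga2, a chromatin protein known to hold down Cdkn2a in young neural stem cells, went to 0.473 against 66.6 CPM in young cells (log2 -7.09 ± 0.26). Pcgf2, a Polycomb subunit, rose by 2.93 ± 0.088 and the methyltransferase Ezh1 by 1.28 ± 0.076, and Ezh2 was at -1.51 ± 0.059 in old cells. Of 16 TGF-beta and Smad genes 6 rose and 7 fell in young cells and 6 and 9 in old cells, with the receptor Tgfbr2 at -3.29 ± 0.095 and the inhibitor Smad7 at 2.002 ± 0.10 in young cells. Of 14 tested genes of the senescence secretory list, 1 rose and 9 fell in young cells (median -4.25) and 2 rose and 11 fell in old cells (-4.56). The background for lower calls was 41.1% of all genes in young and 40.4% in old cells. Lmnb1 and Hmgb2, whose loss is a common sign of senescence, were lower, with log2 changes of -1.60 ± 0.1 and -2.62 ± 0.10 in young cells. Both are also high in dividing cells. They belong to a list of 5 senescence-loss and lysosome genes, all 5 of which were lower at 48 h in both ages, against the same background for lower calls. The list joins genes of different kinds, so its count gives no reading on senescence.

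Cdkn1c, the Cip/Kip gene for p57 and not among the 6, had the largest fold among 4 other inhibitor genes at 6 h. It stood at 8.11 against 1.03 CPM in young cells (log2 2.99 ± 0.17) and 19.3 against 2.07 CPM in old cells (3.23 ± 0.22). At 48 h it was still higher in old cells (2.18 ± 0.22). Of these 4 genes, 3 rose at 6 h in each age, where 74.9% and 75.5% of all genes were called in either direction in young and old cells.

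Old cells given doxycycline allowed differentiation and stem cell medium to be compared at the same labelled hour. Time since plating may still have differed, as differentiation began 18 h after plating. At 6 h, 5 of 6 members were called (80.7% of genes), and at 18 and 48 h all 6 were (81.5% and 76.9%). Cdkn1a libraries at 6 h held 536, 589.7, 522 and 475 CPM in stem cell medium and 314, 285, 291 and 266 CPM in differentiation, a log2 change of -0.85 ± 0.069. At 18 and 48 h the changes were -1.66 ± 0.095 and -2.35 ± 0.061. Cdkn1b was higher in differentiation at every hour (0.27 ± 0.034, 0.33 ± 0.044 and 0.27 ± 0.053). Cdkn2b was 3.05-fold lower at 6 h (70.98, 59.98, 69.02 and 63.3 CPM against 23.7, 18.5, 21.8 and 20.8 CPM) and 1.39-fold lower at 48 h. Cdkn2a did not pass at 6 h (0.037 ± 0.057, adjusted p = 0.566, 95% interval -0.076 to 0.15), but fell at 18 h (-0.60 ± 0.052) and 48 h (-0.67 ± 0.041).

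Cdkn2c was higher at 6 h (0.23 ± 0.078, adjusted p = 0.0183, 0.0701 without animal 4) and lower at 18 h (-1.02 ± 0.081) and 48 h (-1.55 ± 0.051). Cdkn2d followed with 0.45 ± 0.09, -0.74 ± 0.075 and -0.82 ± 0.059. Each direction called here was also that of the untreated old comparison.

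In old cells with doxycycline in stem cell medium, the inhibitors also changed with the labelled hour. No untreated stem cell medium was sampled at 6 or 48 h. Time in the medium and exposure to doxycycline therefore cannot be told apart in these comparisons. The summed astrocyte markers changed as well, with 435 to 494 CPM at 6 h, 661 to 770.4 CPM at 18 h and 729 to 836 CPM at 48 h. The sum of 3 ependymal markers had medians of 8.72, 21.2 and 36.2 CPM at the same times. Each sum rested mostly on 1 gene here. Foxj1 carried the ependymal sum, as Dynlrb2 and Ccdc153 were at most 2.63 and 0.942 CPM in any library. At 6 h Aldh1l1 averaged 459.5 CPM, and Gfap, Aqp4 and S100b averaged 0.662, 1.94 and 2.05 CPM. The part of either sum in these changes was not tested. From 6 to 18 h with doxycycline, 4 of 6 members were called in old cells (61.3% of genes). Cdkn1a fell 1.4-fold, Cdkn1b 1.2-fold and Cdkn2b 1.5-fold, and Cdkn2a rose 1.16-fold (adjusted p = 0.00442), from 59.6, 55.96, 58.1 and 54.5 CPM to 67.8, 62.4, 69.4 and 60.96 CPM. Cdkn2a was higher in 4 of 4 animals, and the groups did not overlap. With animals as blocks Cdkn2c (-0.084 ± 0.031, adjusted p = 0.0305) and Cdkn2d (-0.21 ± 0.068, 0.0183) passed too. Without animal 4 Cdkn2d also passed without the block (0.0422).

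From 18 to 48 h, 3 of 6 were called (52.3% of genes). Cdkn2c rose from 72.2, 85.5, 72.2 and 85.5 CPM to 108, 112, 105 and 110.1 CPM (log2 0.47 ± 0.057, adjusted p = 5.17e-05) and Cdkn2d from 18.3, 19.6, 16.5 and 21.1 CPM to 26.1, 25.6, 25.1 and 26.6 CPM (0.46 ± 0.067, 0.000136). Cdkn2b fell 1.38-fold (0.00106). The libraries did not overlap for any of these 3. With animals as blocks Cdkn1a (-0.10 ± 0.027, adjusted p = 0.00628) and Cdkn1b (-0.10 ± 0.033, 0.015) passed as well, making 5 of 6 (57.2% of genes), and Cdkn1b also passed without animal 4 (0.0238). Cdkn2c and Cdkn2d were thus higher at 48 h than at 18 h in stem cell medium with doxycycline. Both were below their stem cell medium level at 48 h of differentiation.

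Old and young cells were compared in 5 matched conditions. Cdkn2a was lower in old cells in all 5, with no overlap between the libraries of the ages in any. In untreated stem cell medium at 18 h, where 5.95% of genes were called, the old libraries held 71.5, 58.1, 71.8 and 60.2 CPM and the young ones 86.3, 79.4, 76.9, 80.9 and 94.9 CPM. The log2 difference, old minus young, was -0.37 ± 0.081 (edgeR adjusted p = 0.0269). With doxycycline it was -0.45 ± 0.058 (0.00169), and at 6, 18 and 48 h of differentiation -0.44 ± 0.064 (0.00743), -0.34 ± 0.048 (0.00197) and -0.33 ± 0.047 (0.00312). These 5 comparisons come from the same 9 animals and are not independent of each other. The untreated stem cell medium call was lost without old animal 2 (0.0557), old animal 4 (0.0808) or young animal 1 (0.072). In the other 4 conditions no omission of 1 animal and no use of sex as a covariate ended the call.

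Cdkn2c was higher in old cells in 4 of the 5 conditions by the test. The old stem cell medium libraries held 80.9, 92.8, 82.8 and 94.4 CPM and the young ones 69.8, 73.7, 69.4, 72.4 and 56.3 CPM, which did not overlap. The differences were 0.35 ± 0.079 in stem cell medium (adjusted p = 0.0292), 0.37 ± 0.093 with doxycycline (0.0369), 0.25 ± 0.048 at 18 h of differentiation (0.0109) and 0.19 ± 0.052 at 48 h (0.0395). At 48 h the old libraries, 38.9, 38.5, 36.9 and 40.3 CPM, overlapped the young ones, 32.4, 33.4, 34.4, 37.8 and 32.1 CPM. At 6 h the difference of 0.20 ± 0.07 did not pass (0.204). With doxycycline the call was lost with sex as a covariate (0.0614). With doxycycline it was also lost without the filter on low counts (0.0749). At 18 h of differentiation no omission of 1 animal ended the call. In untreated stem cell medium the call was lost without old animal 2, 3 or 4 or young animal 1 or 3 (adjusted p = 0.0544 to 0.0787), with doxycycline without old animal 2, 3 or 4 or young animal 1, 2 or 4 (0.0508 to 0.109), and at 48 h on leaving out any 1 animal other than young animal 4 (0.0542 to 0.101).

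Cdkn1a was lower in old cells with doxycycline in stem cell medium (-0.26 ± 0.051, adjusted p = 0.00972), where the old libraries held 398, 394, 368 and 335 CPM and the young 468, 434, 437, 453 and 438 CPM. It was also lower at 6 h of differentiation (-0.33 ± 0.065, 0.0278) and at 18 h (-0.39 ± 0.073, 0.0141). The libraries of the ages did not overlap in these 3. In untreated stem cell medium and at 48 h the difference did not pass (-0.11 ± 0.049 with adjusted p = 0.212, and -0.11 ± 0.1 with 0.526). The 6 h call was lost without old animal 2, 3 or 4 or young animal 1 or 5 (0.0635 to 0.103), and the 18 h call without old animal 3 (0.0529).

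Cdkn2b had a log2 difference of -0.32 ± 0.14 in stem cell medium that did not pass (adjusted p = 0.207), nor did -0.43 with doxycycline (0.11) or -0.32, -0.17 and -0.10 at 6, 18 and 48 h of differentiation. DESeq2 called it with doxycycline (0.00772) and at 6 h (0.0132), and edgeR called it at 6 h without old animal 1 (0.0327). In old stem cell medium Cdkn2d held 19.1, 21.5, 19.1 and 21.2 CPM against 15.7, 18.2, 18.2, 17.8 and 16.1 CPM in young cells. These libraries did not overlap, and the difference of 0.22 ± 0.065 had an adjusted p of 0.0673 with edgeR and 0.0128 with DESeq2. Differences of Cdkn1b ran from -0.047 to 0.11, with intervals of 0.0073 to 0.17 in stem cell medium and -0.16 to 0.070 at 48 h. None of these differences passed with edgeR. In stem cell medium the edgeR adjusted p ran from 0.131 to 0.37 when single animals were left out. In all, the number of members called was 2, 3, 2, 3 and 2 of 6 in stem cell medium, with doxycycline, and at 6, 18 and 48 h of differentiation, against 5.95%, 8.24%, 1.43%, 5.19% and 10.6% of all genes.

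**Figure D4:**
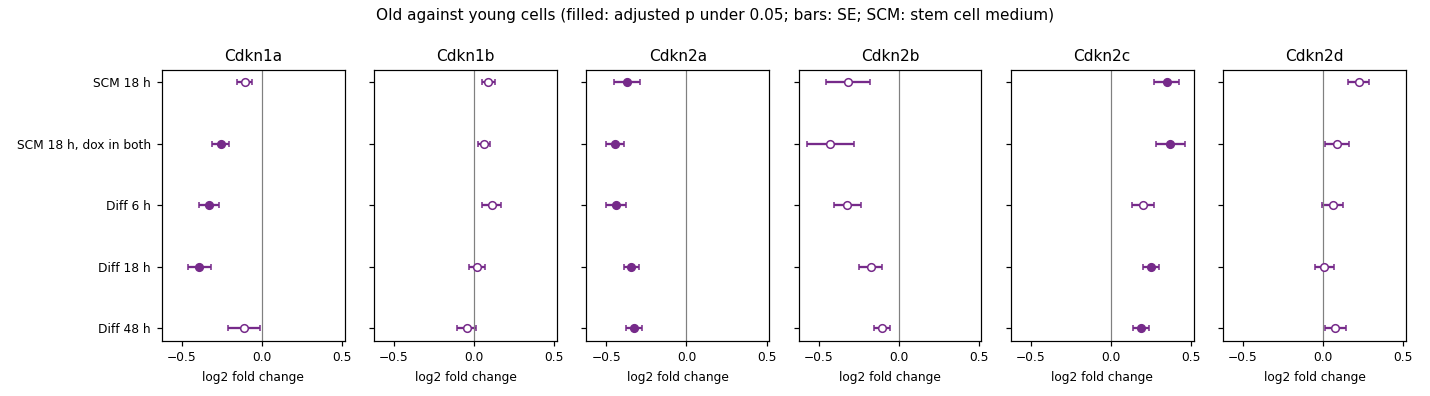
Log2 difference between old and young cells for each member in the 5 matched conditions; bars are SE and filled points have an adjusted p under 0.05. Cdkn2a is filled and below 0 in all 5 rows, from -0.33 to -0.45, and Cdkn2c lies above 0 in all 5 and is filled in 4.

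Of the pathway genes in the lists, edgeR called 13 of 142 tested with age in stem cell medium (5.95% of all genes) and 16 of 138 at 48 h of differentiation (10.6%). DESeq2 called 25 and 24 of them. Ccnd2, a D-type cyclin, was lower in old stem cell medium (-0.32 ± 0.065, 2146 against 2664 CPM). Ets1, an activator of the p16 promoter, was higher (0.38 ± 0.037), as were the Polycomb gene Phc1 (0.18 ± 0.035) and Trp53 itself (0.18 ± 0.039). Of the 24 p53 genes 2 were higher and 4 lower, among them the death receptor gene Tnfrsf10b (-0.44 ± 0.06). Tgfbr2, a TGF-beta receptor, was lower (-0.58 ± 0.088), and Gdf15, a stress cytokine, was higher (0.56 ± 0.073). None of 20 S phase and mitosis genes passed with edgeR in stem cell medium (median log2 0.26), where 7 had an unadjusted p under 0.05 and DESeq2 called 3. Cdkn1c was higher in old cells at 6 h (1.25 ± 0.20), 18 h (1.04 ± 0.16) and 48 h (1.03 ± 0.17) of differentiation.

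Doxycycline was compared with no treatment at the same time, medium and age in 5 pairs of groups. Pou5f1, which encodes Oct4, averaged 0.401 CPM in treated and 0.16 CPM in untreated old stem cell medium, where the libraries overlapped. In young cells it averaged 0.786 against 0.205 CPM, with no overlap. In old differentiation it averaged 0.327 against 0.0625 CPM at 6 h, 0.267 against 0.124 at 18 h and 0.335 against 0.186 at 48 h. There only the 48 h libraries overlapped. Sox2 averaged 255 against 258 CPM, Klf4 8.57 against 8.12 CPM and Myc 160 against 175 CPM in old stem cell medium. The sources used here do not say whether reads of the cassette were counted to these genes. Among the 6 inhibitors edgeR called 0 in each of the 5 comparisons (0.018% of all genes in old and 0.0361% in young stem cell medium, and 0.0294%, 0.0118% and 0.0296% at 6, 18 and 48 h of differentiation). DESeq2 called 0 as well, and 0, 1, 1, 0 and 1 members had an unadjusted p under 0.05. The largest difference was that of Cdkn2b in young stem cell medium, with 52.99, 57.4, 49.8, 52.7 and 76.96 CPM in treated and 44.9, 45.9, 43.8, 47.2 and 65.04 CPM in untreated libraries. These groups overlapped, but within each of the 5 animals the treated library was higher.

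With the animal as a block, which removes level differences between animals, some members passed in stem cell medium. In young cells Cdkn2b was higher (log2 0.23 ± 0.033, adjusted p = 0.000259) and Cdkn2c lower (-0.17 ± 0.036, adjusted p = 0.00568), 2 of 6 members against 13.6% of genes. Cdkn2b in young cells also passed without the block when animal 5 was left out (0.0233). That omission raised the calls over all genes too, to 333 higher and 456 lower of 16641. With all animals they were 6 higher and 0 lower of 16621. In old cells Cdkn2b was higher (0.12 ± 0.03, adjusted p = 0.00834) and Cdkn2c (-0.15 ± 0.024, adjusted p = 0.000192) and Cdkn1a (-0.068 ± 0.019, adjusted p = 0.0216) lower, 3 of 6 against 11.2%. The old Cdkn2c libraries held 72.2, 85.5, 72.2 and 85.5 CPM with and 80.9, 92.8, 82.8 and 94.4 CPM without doxycycline, lower in 4 of 4 animals. At 6 h of differentiation Cdkn2a was higher (0.13 ± 0.034, adjusted p = 0.0419) and Cdkn2c lower (-0.14 ± 0.03, adjusted p = 0.014), 2 of 6 against 3.67%. At 18 and 48 h 0 members passed with the block (0.883% and 4.15% of genes). The 95% interval of the Cdkn2a difference without the block was -0.15 to 0.16 in old and -0.040 to 0.21 in young stem cell medium.

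**Figure D5:**
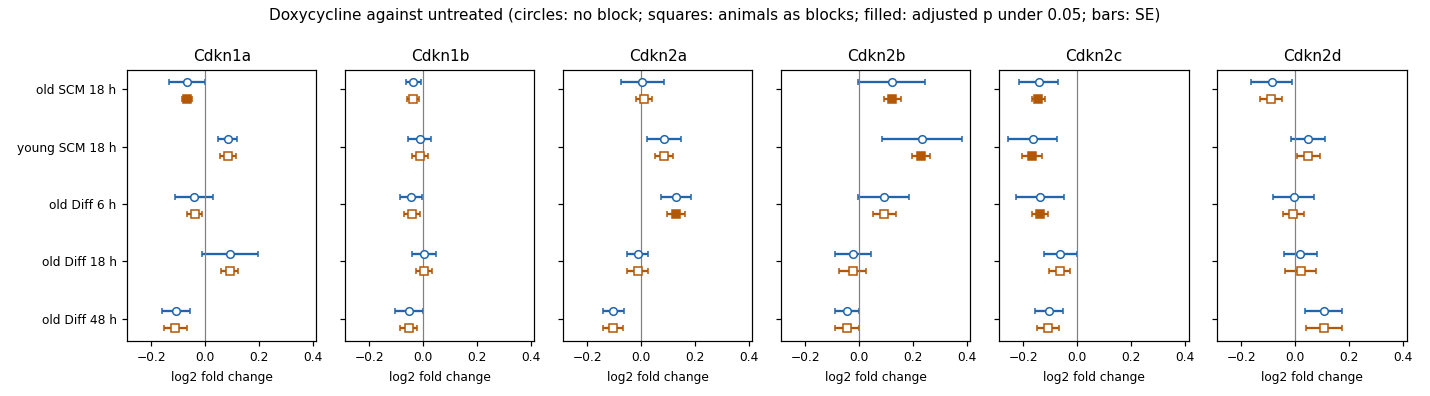
Log2 difference between doxycycline and untreated cells for each member in 5 matched pairs of groups, without (circles) and with (squares) animals as blocks; bars are SE and filled symbols have an adjusted p under 0.05. No circle is filled, and Cdkn2c lies below 0 in all 5 rows.

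Whether doxycycline acted differently at the 2 ages, or in the 2 media in old cells, was tested at 18 h. EdgeR called 0 members in both interactions (0.0% and 0.00566% of genes), DESeq2 called 0, and 0 had an unadjusted p under 0.05. With animals as blocks 1 member passed by age: for Cdkn1a the old minus young effect was -0.15 ± 0.037 (adjusted p = 0.0302, 3.43% of genes called). Among the 20 S phase and mitosis genes, the fits with blocks called 19 lower in old stem cell medium (median -0.18) and 20 lower in young (-0.28), and 0 higher in either. Of all genes, the same fits called 7.01% lower in old and 6.74% lower in young cells. Without blocks edgeR and DESeq2 called none of the 20 in either age, and 1 in old and 5 in young cells had an unadjusted p under 0.05.

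Animals differed in ways that recurred across their libraries. Young animal 5 had the highest Cdkn2b in 5 of 5 groups, a mean of 0.26 above the group mean on the log2 scale, and the lowest Cdkn2c in 4 of 5. Young animal 4 had the highest Cdkn1b in 5 of 5 groups. Among old animals, animal 4 had the lowest Cdkn1a in 9 of 10 groups and animal 1 the highest in 7. Old animal 2 had the lowest Cdkn2b in 8 of 10 groups and the highest Cdkn2c in 6. Libraries of an animal share its cells, so these counts describe 9 animals, not 65 independent samples.

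Over the 15 group means, Cdkn2c and Cdkn2d had the most similar profiles among the members (Pearson r = 0.948 of log2 CPM). Cdkn1a was next to Cdkn2c at 0.85 and Cdkn2a at 0.836, and Cdkn1b ran from -0.565 with Cdkn2b to 0.237 with Cdkn2d. The groups share 9 animals and the same shift of medium, so r is a description. Among 11803 genes averaging 5 CPM or more, the profiles closest to Cdkn1a were those of Camk2b and Uaca (both 0.992) and Mbtps1 (0.991). Those closest to Cdkn1b were Kdm1a (0.961), Zfp410 (0.959) and Mms19 (0.955). Close to Cdkn2a were Ifitm3 (0.955) and Ccdc141 (0.943), and closest to Cdkn2b were Ncs1 (0.99), Tm9sf2 (0.987) and Wdr61 (0.985). Terf1, Kctd18 (both 0.989) and Rccd1 (0.988) lay closest to Cdkn2c. Fzr1, an activator of the anaphase-promoting complex (0.994), Cenpc1 (0.985), a centromere protein gene, and Odf2 (0.981) lay closest to Cdkn2d.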

How the data were processed

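The deposited table holds whole-number counts per gene in 65 mRNA libraries (stranded kit, paired-end). Per the submitters' processing notes, the authors' tools for the deposited counts were STAR 2.7.10b on mm10, Trim Galore 0.6.6, Subread and SAMtools, beside DESeq2 1.40.1; the strand and multimapping settings are not given in the sources used here. The deposited transformed table was not used. Counts were tested with edgeR 4.0.16 (quasi-likelihood, limma 3.58.1, R 4.3.3) on the 2 groups compared, or 4 for interactions, after filterByExpr (minimum 10) and TMM scaling, with Benjamini-Hochberg adjustment over all tested genes and a threshold of 0.05. Standard errors were derived from the fold change and its F statistic. The 95% intervals are normal approximations from these errors, adjusted neither for small groups nor for the number of genes. Levels are TMM-scaled CPM (factors 0.967 to 1.04), divided by merged exon length for values per kb. DESeq2 1.42.0, RLE scaling, no filter, animal blocks, sex and omission of each animal were alternatives. The script was tested on simulated data without differences between animals, and only for edgeR fits without blocks. That test does not show how small a difference could be found in these libraries. Within an age the labels give each animal 1 number, and same-animal deviations correlated in all 20 comparisons (medians 0.439 to 0.796, lowest pair 0.239). Across ages numbers pair nothing. The members and lists were chosen with earlier results of these data known. Named list genes are up to 2 called per direction with the largest fold change and a mean of at least 5 CPM in a group; closest profiles are the 3 with the highest Pearson r, of which 1 is not reported here.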

Additional observations from a re-analysis of the deposited data

Results flagged for a closer look

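Of 90 sets of libraries (6 genes in 15 groups), 7 had a library set far apart from the rest of its group, where chance gives about 1 in 20. Young animal 5 accounts for 5 of them. Its Cdkn2b was the highest of 5 in stem cell medium (65.04 CPM), with doxycycline (76.96 CPM) and at 6 h of differentiation (28.17 CPM). Its Cdkn2a was the highest with doxycycline (99.36 CPM), and its Cdkn2c was the lowest in stem cell medium (56.31 CPM). In old cells with doxycycline in stem cell medium, Cdkn2b of animal 1 was the lowest of 4 at 48 h (30.39 CPM). The gap was small in CPM, as the others held 31.24 to 31.39 CPM. Cdkn2d of animal 2 was the highest of 4 at 6 h in the same medium and treatment (26.41 CPM).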

How the results depend on the processing

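The same 6 genes were refitted with RLE normalization, without the filter on low counts, with DESeq2, with animals as blocks within an age, with sex as a covariate between ages, and without each animal in turn. Over single genes, RLE changed no call, and DESeq2 lost none of 91 calls and added 3. With the replicate block, 79 of 79 calls held and 14 were added, so the number of members called of 6 became 5 for young differentiation 48 h against 18 h, 5 for old doxycycline stem cell medium 48 h against 18 h, 3 for doxycycline in old stem cell medium 18 h, 2 for doxycycline in young stem cell medium 18 h, 2 for doxycycline in old differentiation 6 h and 1 for the interaction of age by doxycycline; the block changed no other call of a member beyond these and those of Cdkn2c and Cdkn2d from 6 to 18 h in stem cell medium with doxycycline. Sex as a covariate ended 1 of 12 calls and no filter 1 of 91, both Cdkn2c between ages with doxycycline. Leaving out an animal ended 34 of 451 calls and added 5, and the number of members called ranged from 0 to 1 for doxycycline in young stem cell medium 18 h, 0 to 2 for old against young stem cell medium 18 h, 1 to 3 for old against young differentiation 6 h, 1 to 2 for old against young differentiation 48 h and 0 to 1 for the interaction of age by differentiation 18 h. Differences near 0 changed sign: without the filter the result Cdkn2a, interaction age by differentiation 18 h, was -0.00052, and with the block Cdkn1a was 0.0029 for that interaction at 48 h. Without an animal each, the log2 ranges were as follows. For young differentiation 48 h against 18 h, Cdkn2c from -0.025 to 0.031. For doxycycline in old stem cell medium 18 h, Cdkn2a from -0.031 to 0.029. For doxycycline in young stem cell medium 18 h, Cdkn1b from -0.040 to 0.0061. For doxycycline in old differentiation 6 h, Cdkn2d from -0.027 to 0.0091. For doxycycline in old differentiation 18 h, Cdkn1b from -0.011 to 0.016, Cdkn2a from -0.037 to 0.024, Cdkn2b from -0.071 to 0.0016, Cdkn2d from -0.027 to 0.046. For old against young differentiation 6 h, Cdkn2d from -0.0016 to 0.096. For old against young differentiation 18 h, Cdkn1b from -0.019 to 0.048, Cdkn2d from -0.025 to 0.040. For old against young differentiation 48 h, Cdkn1b from -0.086 to 0.0012. For the interaction of age by doxycycline stem cell medium 18 h, Cdkn1b from -0.043 to 0.0033, Cdkn2c from -0.0018 to 0.068. For the interaction of age by differentiation 6 h, Cdkn1b from -0.016 to 0.037, Cdkn2b from -0.081 to 0.014. For the interaction of age by differentiation 18 h, Cdkn2a from -0.064 to 0.042. For the interaction of age by differentiation 48 h, Cdkn1a from -0.065 to 0.063, Cdkn2a from -0.029 to 0.091. For the interaction of doxycycline by medium old 18 h, Cdkn2a from -0.036 to 0.020. Why these values moved was not tested. Depth gave at least 633 counts per member and library, and groups held 4 or 5 animals.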
